A study of Mus musculus with 2 samples.

Results

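The genes described here are 8 genes of the vascular endothelial growth factor (VEGF) system and of oxygen sensing: the ligands Vegfa and Vegfb, the receptors Flt1 and Kdr, the co-receptor Nrp1, the receptor tyrosine kinase Kit, the transcription factor subunit Hif1a and the prolyl hydroxylase Egln3. They were listed by name, without use of their levels, and all 8 were present among the 32285 genes of the count matrices. The cells were immune cells from liver tumors. Hepatocellular carcinoma (HCC) was induced in wild-type male C57BL/6 J mice of 6 to 8 weeks by hydrodynamic injection of plasmids for human MYC, for a guide RNA that disrupts Trp53 and for the sleeping beauty transposase, so the oncogene and the guide act in the hepatocytes that took up DNA. All tumors received lenvatinib at 30 mg/kg for 25 days until resistance was established. Thereafter 1 group continued on lenvatinib alone at 30 mg/kg, and the other received lenvatinib at 30 mg/kg with the CDK4/6 inhibitor palbociclib at 100 mg/kg (combo). Live CD45+ cells were sorted and sequenced as 1 library per treatment. The number of mice behind each library is not given in the sources used here. No untreated library was analysed here, so both libraries carry lenvatinib.

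VEGF-A signals to endothelial cells mainly through the receptor VEGFR2, which Kdr encodes, while VEGFR1, which Flt1 encodes, binds VEGF-A and VEGF-B and is also found on myeloid cells. Neuropilin-1, encoded by Nrp1, is a co-receptor for VEGF-A and semaphorins. When oxygen is low the HIF-1α protein, encoded by Hif1a, escapes hydroxylation by the EGLN enzymes and activates genes that include Vegfa and Egln3 itself, so that HIF-1α is regulated largely at the protein level. Lenvatinib inhibits the VEGF receptors and, among other kinases, the stem cell factor receptor KIT, so 3 of the 8 genes encode targets of the drug that both groups received.

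Each unique molecular identifier (UMI) marks 1 captured RNA molecule, and levels are given as CPM, the UMIs of a gene per 1000000 UMIs of the same cells. Cells with at most 6000 detected genes and at most 25% mitochondrial UMIs were kept, which left 14201 of 14509 barcodes under lenvatinib and 11613 of 11989 under combo, with medians of 5541 and 5754 UMIs per cell. Ptprc, the gene of CD45, had a UMI in 95.4% of the kept cells of either library. The libraries shared 49 cell barcodes, and the counts of genes past 2-fold given below were the same without them. With 1 library per treatment there was no replicate and no test, and library and treatment cannot be told apart. All intervals are exact 95% intervals (Poisson for levels, Clopper-Pearson for shares and ratios) and cover counting error only.

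Cells were gated by whichever of 7 genes had the most UMIs. This gave 5876 and 4386 T cells (Cd3e, lenvatinib and combo), 3002 and 1251 NK cells (Ncr1), 724 and 767 B cells (Cd79a), 321 and 868 monocytes and macrophages (Csf1r), 929 and 2073 neutrophils (Csf3r), 338 and 310 dendritic cells (Flt3), and 34 and 23 basophils (Mcpt8). The remaining 21.0% and 16.7% of cells had no gate gene or a tie. In both libraries each gate held the highest summed level of its own list of 6 marker genes among the gates. Neutrophil genes (S100a8, S100a9, Retnlg, Cxcr2, Lcn2 and Mmp9) were present in every gate and were higher under combo in all but 1, at 1137 and 6672 CPM in T cells, 328 and 24349 CPM in B cells, and 1601 and 16160 CPM in monocytes and macrophages. The exception was the basophil gate, where they summed to 17132 CPM under lenvatinib and 1225 CPM under combo, so values from the 34 and 23 cells of that gate are given as those of an Mcpt8 gate and not of pure basophils. The median gene was lower under combo in most gates, at a ratio of 0.905 in T, 0.919 in NK, 0.749 in B, 0.877 in monocyte and macrophage, 0.700 in neutrophil, 0.962 in dendritic and 1.05 in basophil gates. Ratios are therefore also given relative to the median gene where that ends or makes a 2-fold difference. Ratios within 2-fold also turned from below to above 1 relative to the median gene in 11 combinations, namely Vegfa in T cells (0.982 to 1.09) and in monocytes and macrophages (0.897 to 1.02), Flt1 in monocytes and macrophages (0.963 to 1.10), Nrp1 in NK cells (0.988 to 1.08), B cells (0.818 to 1.09) and neutrophils (0.857 to 1.23), Kit in neutrophils (0.969 to 1.38), Hif1a in NK and B cells and neutrophils, and Egln3 in neutrophils.

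Of 56 combinations of a gene and a gate, 38 had at least 50 UMIs over both libraries. In 30 of these the libraries lay within 2-fold of each other, 2 were at least 2-fold higher under combo and 6 were at least 2-fold lower. In T cells 0 of 6 genes were past 2-fold, where 2.81% of all genes with at least 50 UMIs were higher and 3.35% lower. In NK cells it was also 0 of 6, against 2.95% and 2.42% of all genes. In B cells 1 of 4 was lower, against 11.0% of all genes (2.38% were higher). In monocytes and macrophages 1 of 7 was higher and 2 were lower, against 2.51% and 7.27%. In neutrophils 1 of 6 was lower, against 16.9% (2.20% were higher). In dendritic cells 1 of 7 was higher and 1 lower, against 2.30% in either direction. In the basophil gate 1 of 2 was lower, against 9.80% (5.48% were higher). The share of all genes past 2-fold downwards was thus largest in neutrophils and B cells, where the lower gene was Vegfa in either case.

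**Figure D1:**
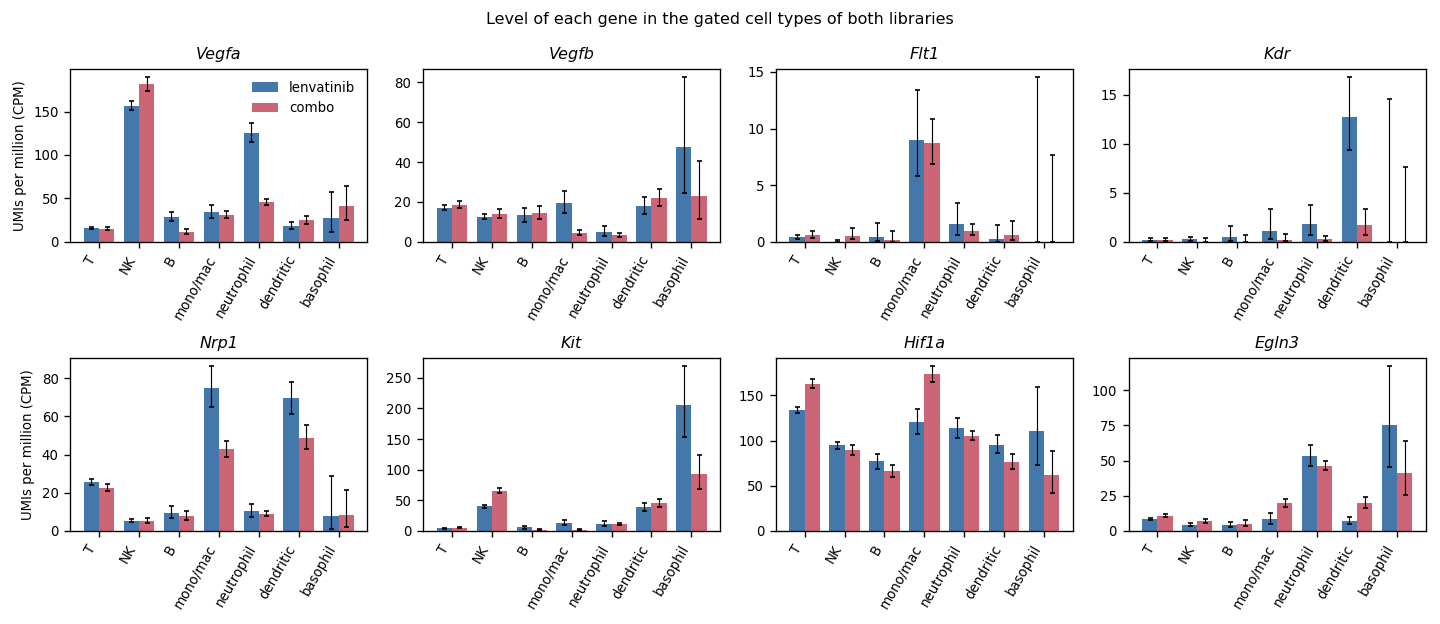
CPM of each of the 8 genes in the 7 gated types, with blue bars for the lenvatinib library, red bars for the combo library and error bars for exact Poisson 95% intervals; each panel has its own linear axis from 0. Vegfa was highest in NK cells in either library, Flt1 in monocytes and macrophages, Nrp1 in dendritic cells and in monocytes and macrophages, and Kdr in dendritic cells, where the lenvatinib bar stands at 12.7 CPM and the combo bar at 1.68 CPM.

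Vegfa (ENSMUSG00000023951, chr17:46016993-46032369, minus strand, mm10), which encodes the main growth factor of blood vessels, was most abundant in NK cells. Its level there was 157 CPM under lenvatinib (152 to 162) and 182 CPM under combo (174 to 189.8), from 3925 and 2031 UMIs. NK cells held 62.4% of all Vegfa UMIs under lenvatinib and 45.9% under combo, while they made up 21.1% and 10.8% of cells. A Vegfa UMI was seen in 45.9% (44.1% to 47.7%) and 55.4% (52.6% to 58.2%) of NK cells, at medians of 7291.5 and 7358 UMIs per cell. With each cell reduced at random to 2000 UMIs (thinned) the shares were 22.6% and 26.9%, against 2.61% and 2.03% in T cells, whose median depths were 6288.5 and 5735 UMIs. NK cells stood above neutrophils, the next type, in both libraries.

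Within NK cells, Vegfa was lower in those with Itga1 and no Itga2 UMI (125 and 124 CPM in 560 and 248 cells) than in those with Itga2 and no Itga1 UMI (172 and 210.5 CPM in 708 and 249 cells). Itga1 encodes CD49a, which marks tissue-resident NK cells and type 1 innate lymphoid cells of the liver, and Itga2 encodes CD49b, which marks circulating NK cells. The ratio of combo to lenvatinib was 1.16 over all NK cells (1.10 to 1.22), 0.992 in the Itga1 gate (0.868 to 1.13) and 1.22 in the Itga2 gate (1.10 to 1.37).

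In neutrophils Vegfa had 125 CPM under lenvatinib (114 to 137) and 46.0 CPM under combo (42.8 to 49.4), from 481 and 756 UMIs. The combo level was 2.73-fold lower, a ratio of 0.367 (0.327 to 0.412). Relative to the median neutrophil gene the ratio was 0.524, which is within 2-fold. The difference was present on either side of a split by Ptgs2, the gene of cyclooxygenase-2. Neutrophils with a Ptgs2 UMI had 157 and 69.0 CPM of Vegfa in 621 and 1048 cells. Those without one had 79.7 and 29.1 CPM in 308 and 1025 cells. The thinned share of neutrophils with a Vegfa UMI was 19.0% and 9.44%, at unthinned median depths of 2745 and 5355 UMIs. The 6 neutrophil marker genes summed to 101096 and 236025 CPM in the same gates, and 6 NK genes to 718 and 237 CPM. The part of these other genes in the Vegfa difference was not tested.

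B cells had 28.4 CPM of Vegfa under lenvatinib (23.6 to 33.8) and 11.2 CPM under combo (8.61 to 14.3), a ratio of 0.394 (0.287 to 0.537). This rested on 124 UMIs in 67 cells and 64 UMIs in 41 cells. Relative to the median B cell gene the ratio was 0.526. Called doublets made up 9.12% and 6.26% of this gate, the largest shares of any gate in either library, and the ratio was 0.333 without them. The NK marker list summed to 764 CPM in B cells under lenvatinib and 287 CPM under combo, and its part in the Vegfa level was not tested. In the other gates Vegfa was lower than in NK cells and neutrophils of the same library. Monocytes and macrophages had 34.5 and 31.0 CPM, dendritic cells 18.2 and 24.9 CPM, and T cells 15.5 and 15.2 CPM. In dendritic cells the ratio of levels was 1.37 (1.01 to 1.87), but the thinned share of cells with a Vegfa UMI was 4.66% under lenvatinib and 3.25% under combo, so no order is read from it. Dendritic cells led by Siglech had 23.1 and 14.8 CPM of Vegfa and those led by Xcr1 16.4 and 4.50 CPM. The 48 and 70 dendritic cells outside the finer gates (led by none of Siglech, Xcr1, Cd209a and Ccr7, or tied) held 10 and 68 of the 70 and 119 Vegfa UMIs, and 1 combo cell held 14. The Mcpt8 gate held only 7 and 20 Vegfa UMIs, which gave 27.6 and 41.4 CPM. Among T cells, those with Trdc, a gamma-delta T-cell receptor gene, had 29.6 and 35.9 CPM of Vegfa, above those with Cd8a (12.5 and 10.4 CPM) or Foxp3 (13.1 and 11.1 CPM). Below neutrophils in the order of gates, the only neighbours that were apart in both libraries were monocytes and macrophages and, next after them, dendritic cells.

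Vegfb (ENSMUSG00000024962, chr19:6982473-6987651, minus strand), a ligand of VEGFR1, had similar levels in the lymphocyte gates and in dendritic cells. T cells had 17.0 CPM (15.8 to 18.2) and 18.6 CPM (17.1 to 20.2), and held 52.3% and 47.9% of all Vegfb UMIs. NK cells had 12.5 and 14.1 CPM, B cells 13.3 and 14.5 CPM, and dendritic cells 17.7 and 22.0 CPM. Neutrophils were lowest, at 4.95 and 3.41 CPM. The Mcpt8 gate was highest, at 47.3 CPM (24.5 to 82.7) and 22.8 CPM (11.4 to 40.7), from only 12 and 11 UMIs, and under combo its interval overlapped that of dendritic cells. The combo to lenvatinib ratio was 1.10 in T cells (0.981 to 1.23), 1.13 in NK cells (0.925 to 1.37) and 1.24 in dendritic cells (0.909 to 1.71), so that each interval held 1.

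The exception for Vegfb was the Csf1r gate, with 19.5 CPM under lenvatinib (14.6 to 25.6) and 4.39 CPM under combo (3.14 to 5.98), from 52 and 40 UMIs. This is a ratio of 0.225 (0.145 to 0.346), or 4.44-fold lower. Cells of this gate with at least 2 UMIs of C1qa, a complement gene of resident macrophages, held most of the lenvatinib UMIs. Their Vegfb level was 61.3 CPM (43.6 to 83.8) in 71 lenvatinib cells and 14.7 CPM (5.93 to 30.4) in 47 combo cells. In cells with fewer C1qa UMIs it was 6.41 CPM (3.41 to 11.0) in 250 cells and 3.82 CPM (2.63 to 5.37) in 821 cells. The intervals were apart between libraries in the C1qa cells and overlapped in the rest. The C1qa cells themselves differed, with C1qa at 4046 and 1788 CPM and the neutrophil gene S100a8 at 119.5 and 10322 CPM. S100a8 had 1243 and 8418 CPM in the rest. The part of these differences in the levels of either set of cells was not tested. Cells with C1qa were 71 of 321 under lenvatinib and 47 of 868 under combo, a difference in makeup that stands beside the level of the whole gate.

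**Figure D2:**
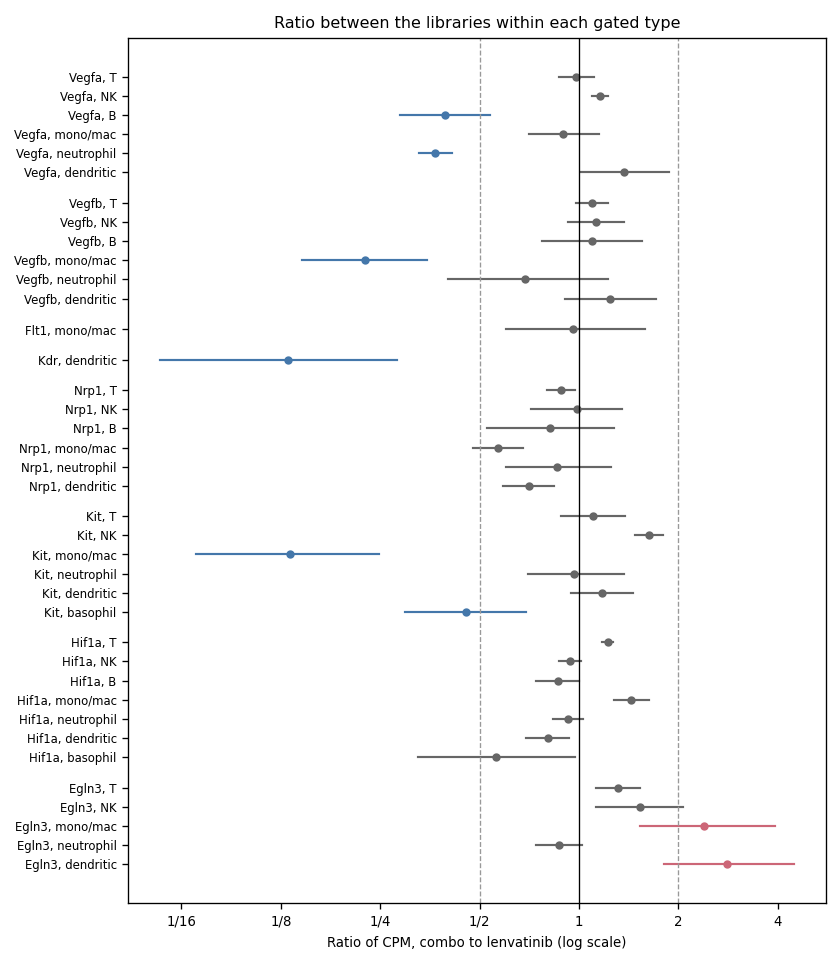
Ratio of combo to lenvatinib CPM on a log axis for the 38 combinations of a gene and a gated type with at least 50 UMIs, with horizontal bars for exact 95% intervals of counting error and dashed lines at 2-fold. The 2 red points, Egln3 in monocytes and macrophages (2.39) and in dendritic cells (2.81), lie beyond 2-fold higher, the 6 blue points, from Vegfa, Vegfb, Kdr and Kit, lie beyond 2-fold lower, and all points of Nrp1 and Hif1a lie within 2-fold.

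Flt1 (ENSMUSG00000029648, chr5:147561604-147726011, minus strand) was sparse. All cells together held 61 UMIs under lenvatinib and 146 under combo, which is 0.641 CPM (0.491 to 0.824) and 1.62 CPM (1.37 to 1.90). Monocytes and macrophages were the main source, with 24 and 79 UMIs and levels of 9.01 CPM (5.77 to 13.4) and 8.68 CPM (6.87 to 10.8). Their Flt1 level did not differ beyond counting error between the libraries, at a ratio of 0.963 (0.603 to 1.59). The same was true of those with few C1qa UMIs, at 8.88 and 8.81 CPM. Over all cells the ratio was 2.53 (1.86 to 3.46), beside 6.91% of all genes that were at least 2-fold higher over all cells and 5.45% that were lower. Monocytes and macrophages made up 2.26% of cells under lenvatinib and 7.47% under combo. When the levels of the gates were weighted by the UMI shares of the lenvatinib library in both libraries, a step added after the values were seen, the ratio was 1.49. Neutrophils had 1.56 and 0.973 CPM, and every other gate was below 1 CPM. NK cells under lenvatinib had 0 Flt1 UMIs, which allows a level of up to 0.147 CPM by the exact interval (3 UMIs would be 0.120 CPM).

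Kdr (ENSMUSG00000062960, chr5:75932827-75978458, minus strand) had few UMIs in either library. There were 118 UMIs in 65 cells under lenvatinib and 23 UMIs in 16 cells under combo, a ratio of 0.206 over all cells (0.125 to 0.323). Dendritic cells held 49 UMIs in 25 cells under lenvatinib and 8 UMIs in 4 cells under combo, or 12.7 CPM (9.42 to 16.8) and 1.68 CPM (0.724 to 3.30). The ratio was 0.132 (0.0538 to 0.280), 7.60-fold lower. A Kdr UMI was thus seen in 7.40% and 1.29% of dendritic cells, at median depths of 9987 and 12958.5 UMIs, whereas it was seen in 0.102% and 0.0684% of T cells. Thinned to 2000 UMIs the shares in dendritic cells were 1.86% and 0.649%.

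Most dendritic Kdr UMIs came from cells led by Siglech, a gene of plasmacytoid dendritic cells. These were similar in number, with 164 cells under lenvatinib and 167 under combo, but held 36 and 7 Kdr UMIs, or 22.5 CPM (15.7 to 31.1) and 3.44 CPM (1.38 to 7.09). Cells led by Xcr1, a gene of type 1 conventional dendritic cells, held 0 Kdr UMIs in 46 and 37 cells. Since Kdr is best known from endothelium, endothelial genes were examined in the Kdr-positive dendritic cells. Of 25 such cells under lenvatinib, 25 had a Ptprc UMI, 21 a Siglech UMI, 10 a Cdh5 UMI, 14 a Pecam1 UMI and 1 a Plvap UMI, while 0 had Tie1, Vwf or Ptprb. Among the 313 Kdr-negative dendritic cells of the same library 70 had Cdh5 and 115 had Pecam1, so these 2 genes were seen outside Kdr-positive cells as well. Among all 164 lenvatinib cells led by Siglech, which held 19 of the 25 Kdr-positive cells, 77 had Cdh5 and 91 had Pecam1. Over all cells, at least 1 of 8 endothelial genes was present in 26 of the 65 Kdr-positive lenvatinib cells against 2.92% of the Kdr-negative ones, and in 5 of the 16 Kdr-positive combo cells against 4.62%. At least 2 of the 8 were present in 2 of the 65 (3.08%) against 0.177% of the Kdr-negative lenvatinib cells. Under combo it was 1 of the 16 (6.25%) against 0.509%. The part of endothelial RNA in the Kdr level was not tested. Ungated cells held a further 43 and 5 Kdr UMIs.

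Nrp1 (ENSMUSG00000025810, chr8:128358604-128503363, plus strand) was detected in every gate, with 2167 and 1900 UMIs in all. Dendritic cells had 69.4 CPM (61.3 to 78.2) and 48.8 CPM (42.7 to 55.5), and monocytes and macrophages had 75.1 CPM (65.0 to 86.3) and 42.7 CPM (38.6 to 47.2). These gates did not differ in order beyond the spread of the libraries, and both lay above T cells, at 25.7 and 22.7 CPM. Neutrophils, B cells and the Mcpt8 gate followed without separation, and NK cells were lowest at 5.43 and 5.37 CPM. Nrp1 was lower under combo in monocytes and macrophages, at a ratio of 0.569 (0.478 to 0.678), and in dendritic cells, at 0.704 (0.588 to 0.842), neither past 2-fold. Relative to the median gene these ratios were 0.648 and 0.731.

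Finer gates separated high from low Nrp1 levels. Cells of the Csf1r gate with C1qa had 135 CPM under lenvatinib and 69.5 CPM under combo, a ratio of 0.514 (0.333 to 0.776). Their C1qa and S100a8 levels also differed between the libraries, as given for Vegfb, and the part of this was not tested. Dendritic cells led by Siglech, in which Nrp1 is a known surface marker in the mouse, had 91.8 and 68.4 CPM, a ratio of 0.745 (0.586 to 0.945). Among T cells, those with Foxp3, the factor of regulatory T cells, had 91.8 CPM (81.0 to 104) and 80.6 CPM (54.0 to 116). T cells with Cd4 and no Foxp3 or Cd8a UMI had almost the same level, at 88.5 CPM (76.1 to 102) and 81.1 CPM (70.9 to 92.4). T cells with Cd8a had 15.2 and 15.0 CPM. Cells with a Foxp3 UMI numbered 441 under lenvatinib and 61 under combo, and their Nrp1 ratio was 0.878 (0.576 to 1.29).

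Kit (ENSMUSG00000005672, chr5:75574916-75656722, plus strand), the receptor for stem cell factor in progenitors, mast cells and some innate lymphoid cells, had more of its UMIs in NK cells than in any other gate. They held 54.2% of all Kit UMIs under lenvatinib and 45.4% under combo. The NK level was 40.4 CPM under lenvatinib (37.9 to 42.9) and 65.8 CPM under combo (61.1 to 70.7), a ratio of 1.63 (1.48 to 1.79). Kit was seen in 18.5% and 28.6% of NK cells, and in 6.69% and 10.7% after thinning, against 0.594% and 0.514% of thinned T cells. In the Itga1 gate the levels were 43.8 and 64.1 CPM (ratio 1.46, 1.196 to 1.79), and in the Itga2 gate 26.7 and 58.5 CPM (ratio 2.19, 1.73 to 2.77). The higher level under combo was therefore present in either NK gate, and under lenvatinib the Itga1 gate was above the Itga2 gate.

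Dendritic cells had 38.7 and 45.5 CPM of Kit, without separation from NK cells in the order of gates. Within them Kit was high in cells led by Xcr1, at 79.6 CPM (62.4 to 100.1) and 76.5 CPM (59.4 to 97.0), and in the 16 and 13 cells led by Ccr7, the receptor of migrating dendritic cells, at 78.9 and 96.0 CPM. It was low in cells led by Siglech, at 11.2 and 6.89 CPM. None of these levels differed between the libraries beyond counting error. The 48 and 70 dendritic cells outside the finer gates held a further 37 and 103 of the 149 and 217 dendritic Kit UMIs. Dendritic Kit was thus not confined to cells led by Xcr1 or Ccr7.

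The gate with the highest Kit level was that of Mcpt8, at 205 CPM (153 to 269) under lenvatinib and 93.1 CPM (67.9 to 125) under combo, a ratio of 0.454 (0.298 to 0.690). The lenvatinib value came from 52 UMIs in 6 cells, and 1 cell held 22 of them, whereas the combo value came from 45 UMIs in 13 cells. The share of cells with a Kit UMI was thus 17.6% under lenvatinib and 56.5% under combo, at median depths of 5003.5 and 22014 UMIs, and 7.14% and 13.0% after thinning. The share runs against the level, and no order between the libraries is read from either. With mitochondrial, ribosomal protein and hemoglobin genes left out of the total the ratio was 0.521, within 2-fold. In monocytes and macrophages Kit had 13.1 and 1.76 CPM, a ratio of 0.134 (0.0691 to 0.248). This lenvatinib value came from 35 UMIs in 13 cells, 9 of them in 1 cell, and the combo value from 16 UMIs in 15 cells. With an exclusive gate, that is no UMI of another gate gene, 16 Kit UMIs in 6 lenvatinib cells and 7 in 7 combo cells remained, too few for a ratio by the rule used here. Neutrophils had 12.0 and 11.6 CPM, and T cells 4.34 and 4.78 CPM. The 2 parts of the neutrophil gate went opposite ways. Those with Ptgs2 had 6.62 and 13.2 CPM (ratio 2.00, 1.15 to 3.71), from 15 and 92 UMIs. Those without it had 19.8 and 10.4 CPM (ratio 0.528, 0.350 to 0.819), from 31 and 99 UMIs.

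Hif1a (ENSMUSG00000021109, chr12:73901375-73947530, plus strand) was detected in every gate. T cells had 134 CPM (130.1 to 137) and 163 CPM (159 to 168), and monocytes and macrophages 121 CPM (108 to 134) and 173 CPM (165 to 182). Their order was not separable, and both were above neutrophils, at 114 and 105 CPM, which in turn were above NK cells, at 94.8 and 89.2 CPM. Dendritic cells had 95.4 and 76.7 CPM, B cells 76.8 and 66.2 CPM, and the Mcpt8 gate 110.4 and 62.1 CPM. The gene lies opposite to the antisense gene Gm15283, which had 284 and 440 UMIs in kept cells. Whether the counting kept the strands apart is not given in the sources used here.

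Under combo Hif1a was higher in monocytes and macrophages, at a ratio of 1.44 (1.28 to 1.63), and in T cells, at 1.22 (1.18 to 1.27). It was lower in dendritic cells, at 0.804 (0.694 to 0.932). In the Mcpt8 gate the ratio was 0.562 (0.324 to 0.976), from 28 UMIs in 11 cells and 30 UMIs in 17 cells. The thinned share of cells with a Hif1a UMI was 17.9% and 17.4% there, so no order is read from that gate. In NK cells the ratio was 0.941 (0.873 to 1.01) and in neutrophils 0.927 (0.834 to 1.03). Relative to the median gene the last 2 became 1.02 and 1.32, and that of B cells went from 0.861 to 1.15. A Hif1a UMI was seen after thinning in 21.5% and 31.6% of monocytes and macrophages, and in 24.6% and 25.6% of T cells.

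Among T cells, Hif1a was highest in cells with Foxp3, at 329 CPM (308 to 351) and 292 CPM (239 to 353), and in cells with Cd4, at 327 CPM (303 to 352) and 449.6 CPM (425 to 475). Cells with Cd8a had 100.3 and 114 CPM. The ratio was 1.38 in the Cd4 gate (1.25 to 1.51), 1.14 in the Cd8a gate (1.07 to 1.21) and 0.887 in the Foxp3 gate (0.718 to 1.09). Cells of the Csf1r gate had higher Hif1a under combo both with C1qa, at 89.6 and 149.5 CPM, and without, at 130.2 and 175 CPM. The part of the different C1qa and S100a8 levels of these cells, given for Vegfb, was not tested.

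Egln3 (ENSMUSG00000035105, chr12:54178981-54203860, minus strand), which encodes the hydroxylase PHD3 and is itself induced by HIF, had its highest level among the larger gates in neutrophils, at 53.2 CPM (46.1 to 61.0) and 46.2 CPM (43.0 to 49.6). The Mcpt8 gate reached 74.9 and 41.4 CPM from only 19 and 20 UMIs and was not separable from neutrophils. In neutrophils with Ptgs2 the level was 75.0 CPM (64.1 to 87.1) and 65.2 CPM (59.4 to 71.5). In those without Ptgs2 it was 21.7 CPM (15.0 to 30.3) and 32.3 CPM (28.7 to 36.1). Egln3 and Vegfa were thus both higher in the Ptgs2 gate than outside it, in either library. Between the libraries, however, Egln3 in neutrophils had a ratio of 0.869 (0.744 to 1.02), or 1.24 relative to the median gene, whereas Vegfa had 0.367 and 0.524.

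The 2 combinations past 2-fold upwards were both of Egln3. Monocytes and macrophages had 8.26 CPM (5.18 to 12.5) and 19.8 CPM (17.0 to 22.9), from 22 and 180 UMIs, a ratio of 2.39 (1.53 to 3.91). With the exclusive gate this ratio was 1.79. Dendritic cells had 7.02 CPM (4.62 to 10.2) and 19.7 CPM (15.9 to 24.1), from 27 and 94 UMIs, a ratio of 2.81 (1.81 to 4.48). Those led by Siglech had 10.6 and 18.7 CPM (ratio 1.76, 0.970 to 3.33), and those led by Xcr1 held 1 UMI in either library. Dendritic cells outside the finer gates, 48 and 70 in number, held 7 and 46 of the Egln3 UMIs, so the makeup of the gate differed beside this ratio. The 6 neutrophil marker genes summed to 564 and 3608 CPM in dendritic cells, and neutrophils are the type with high Egln3. The part of neutrophil RNA in these Egln3 levels was not tested. T cells, at 8.31 and 10.9 CPM (ratio 1.31, 1.13 to 1.53), and NK cells, at 4.43 and 6.80 CPM (ratio 1.53, 1.13 to 2.07), were also higher under combo. T cells with Cd8a had 4.32 and 8.31 CPM, a ratio of 1.93 (1.498 to 2.48), while those with Cd4 (18.3 and 15.7 CPM) and Foxp3 (25.9 and 22.2 CPM) had overlapping intervals. The neutrophil gene S100a8 had 298 and 1880 CPM in the Cd8a gate, 1422 and 710 CPM with Cd4, and 2093 and 703 CPM with Foxp3. Cells with Trdc had 181 and 4624 CPM of S100a8 but 19.5 and 18.5 CPM of Egln3. The part of neutrophil RNA in these T cell levels was not tested.

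Over all cells Egln3 had 9.53 CPM under lenvatinib (8.92 to 10.2) and 19.0 CPM under combo (18.1 to 19.9), a ratio of 1.99 (1.84 to 2.16). Relative to the median gene over all cells it was 2.32. Neutrophils held 22.5% of Egln3 UMIs under lenvatinib and 44.4% under combo, and T cells 39.7% and 19.1%. With the gates weighted by the lenvatinib library the ratio was 1.32. Vegfa over all cells had 66.1 and 49.1 CPM, a ratio of 0.743 (0.714 to 0.772), which became 0.9996 with that weighting. Beside these differences, NK cells made up 21.1% and 10.8% of cells and neutrophils 6.54% and 17.9%. Hif1a, at 121 and 129 CPM, differed little over all cells.

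**Figure D3:**
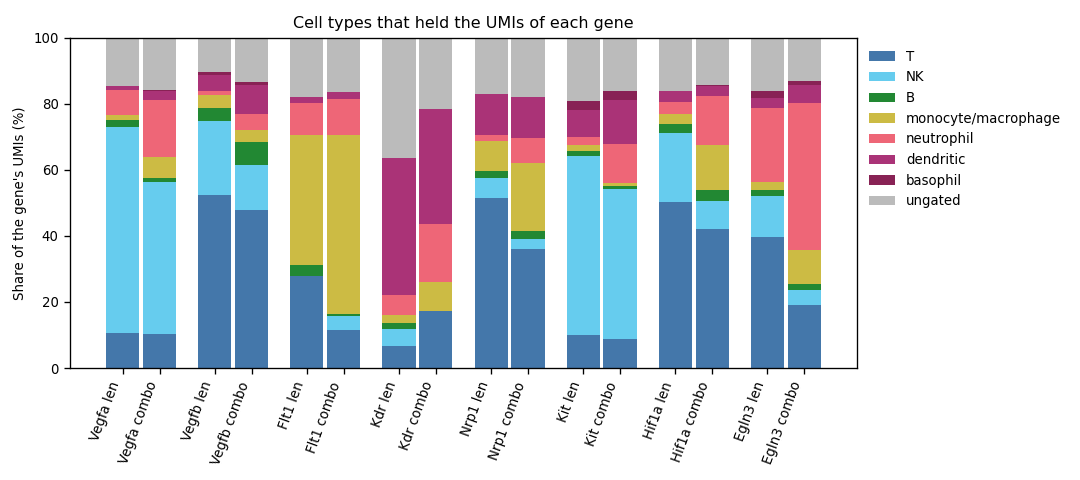
Share of the UMIs of each gene, in percent, that lay in each gated type and in ungated cells (grey), with 1 stacked bar per gene and library (len, lenvatinib). NK cells (light blue) held 62.4% of Vegfa UMIs under lenvatinib and 45.9% under combo, and neutrophils (pink) 22.5% and 44.4% of Egln3 UMIs.

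**Figure D4:**
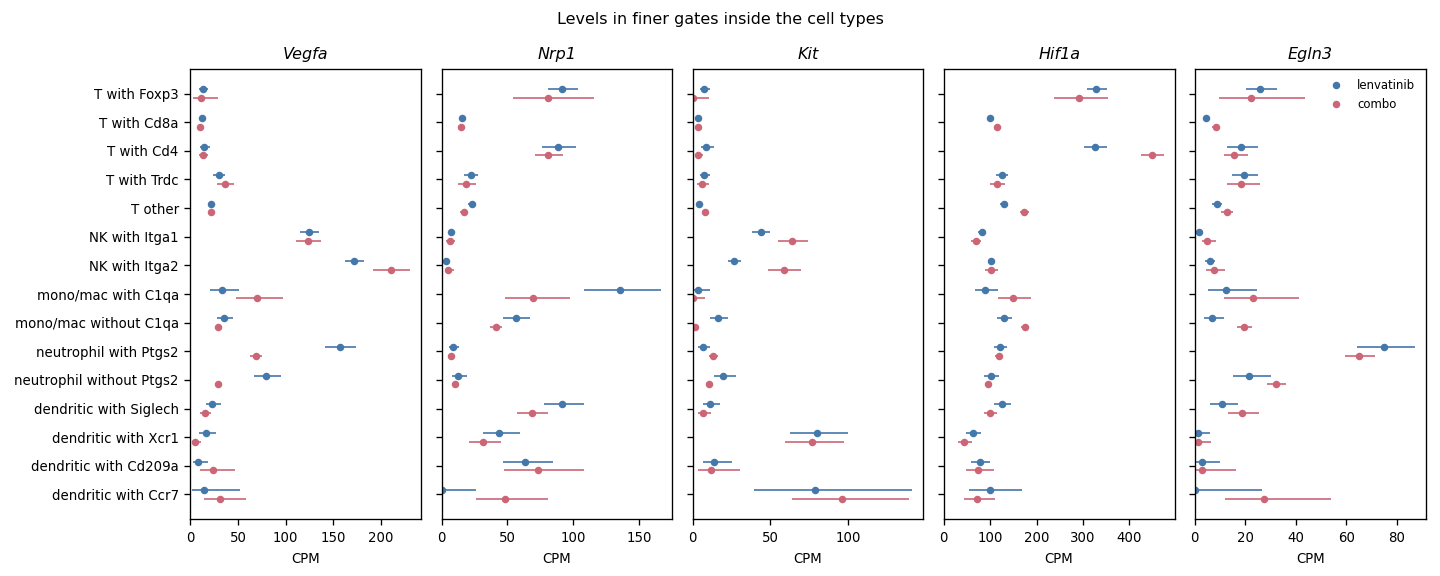
CPM of 5 of the genes in finer gates inside the T, NK, monocyte and macrophage, neutrophil and dendritic gates, with blue points for lenvatinib, red points for combo and bars for exact Poisson 95% intervals. Nrp1 and Hif1a were high in T cells with Foxp3 or Cd4, Kit in dendritic cells led by Xcr1 or Ccr7, and Vegfa and Egln3 in neutrophils with Ptgs2.

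Since Egln3 is a known HIF target and Hif1a encodes the factor, promoters were searched for ACGTG, a form of the core of the HIF response element. The search used the RefSeq promoter entries (assembly GRCm38.p6), on both strands within 250 bases before each start. Other forms of the core were not searched. All 8 genes had an entry. ACGTG was found at the first start of Hif1a and Egln3 and not at the first start of the other genes, while a second start of Vegfa had 1 match. It was found in 5444 of 32851 promoters, or 16.6%. The stretches that hold the matches of Hif1a (chr12:73907697-73907836, plus strand) and Egln3 (chr12:54204064-54204124, minus strand) are shown with the core in capitals. In Hif1a the first match is CACGTG, which reads the same on both strands and was counted on either, so it has 3 matches. The Hif1a stretch lies in an intron of a longer annotated transcript.
Hif1a: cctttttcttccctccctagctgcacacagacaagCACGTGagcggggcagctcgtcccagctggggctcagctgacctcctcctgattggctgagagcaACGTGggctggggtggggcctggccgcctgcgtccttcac
Egln3: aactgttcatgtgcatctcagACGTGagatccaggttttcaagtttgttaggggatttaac
These are matches of letters, and binding was not measured. At the level of RNA, Hif1a and Egln3 were both higher under combo in monocytes and macrophages and in T cells, and went opposite ways in dendritic cells, at 0.804 and 2.81. In NK cells the ratios were 0.941 for Hif1a and 1.53 for Egln3, and in neutrophils 0.927 and 0.869.

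Other genes of the pathway were taken from a list of 36 genes. Of 16 HIF target genes, 13 had at least 50 UMIs in each gate other than the Mcpt8 gate. In monocytes and macrophages 1 of 13 was past 2-fold, Ankrd37, at 22.5 and 46.2 CPM (ratio 2.05). Of all genes there, 2.51% were higher and 7.27% lower. The median ratio of the list was 1.12 against 0.877 over all genes. In dendritic cells 1 of 13 was past 2-fold, Pfkfb3, a glycolytic regulator, at 38.2 and 15.5 CPM (ratio 0.406). Of all genes there, 2.30% were higher and 2.30% lower, and the list median was 1.11 against 0.962. In T cells 0 of 13 were past 2-fold, with a median of 1.08 against 0.905, and in NK cells 0 of 13, with 1.08 against 0.919. In neutrophils it was 0 of 13 with 0.973 against 0.700, and in B cells 0 of 13 with 0.962 against 0.749. In the Mcpt8 gate 3 of 5 were lower (Ndrg1, Ddit4 and Ero1a, at ratios of 0.452, 0.424 and 0.490), against 9.80% of all genes. The list median there was 0.490 against 1.05. This gate held 34 and 23 cells, and its neutrophil marker genes summed to 17132 and 1225 CPM. The part of neutrophil RNA in these ratios was not tested. For the other gates the shares of all genes past 2-fold are those given above. Over all cells 2 of 16 were at least 2-fold higher, against 6.91% of all genes. Bnip3, a mitophagy gene, had 13.4 and 40.2 CPM (ratio 3.001), and Pfkfb4 8.05 and 18.3 CPM (ratio 2.27). Neither was past 2-fold in a gated type, although Bnip3 was in ungated cells (16.2 and 35.8 CPM). Its ratio was 1.995 in monocytes and macrophages and 1.80 in neutrophils. Relative to the median gene, ratios past 2-fold also included Bnip3 in these gates (2.27 and 2.57), Ero1a in monocytes and macrophages (2.12) and Pfkfb4 in B cells (2.29).

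Of 7 oxygen sensors and HIF subunits, 1 was past 2-fold in a gate, NK cells, where 2.95% of all genes were at least 2-fold higher. Epas1, which encodes HIF-2α, had 1.68 and 5.10 CPM in NK cells, a ratio of 3.04 (2.01 to 4.64), and the other 5 measured genes of the list were within 2-fold there. In T cells its ratio was 1.84, or 2.04 relative to the median gene. Of 7 other VEGF family genes, 2 were measured in monocytes and macrophages and 1 was lower there, against 7.27% of all genes. This was Plxna1, a semaphorin receptor subunit that pairs with neuropilin-1, at 22.2 and 3.40 CPM, a ratio of 0.154 (0.0962 to 0.241). Vegfc, a ligand for lymphatic vessels, had 429 of its 559 UMIs under lenvatinib and 254 of 325 under combo in NK cells. Its level there was 17.1 and 22.7 CPM, a ratio of 1.33 (1.13 to 1.55). In ungated cells, with 63 and 28 UMIs, it had 5.35 and 2.27 CPM. Of 6 other kinases that lenvatinib inhibits (Fgfr1 to Fgfr4, Pdgfra and Ret), 2 reached 50 UMIs in T cells and 1 in dendritic cells, and 0 were past 2-fold. Fgfr1 in T cells had 1.84, or 2.03 relative to the median gene.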

How the data were processed

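Both libraries were droplet-based 3′ scRNA sequencing of sorted live CD45+ cells. The deposited files hold raw UMI counts, which the authors had mapped to mm10 and not normalized. The submitters' processing notes name Cell Ranger 5.0.1, and the header of the deposited counts names 6.0.1. Treatment groups came from the labels, and doses and mice from the study's methods, which also gave the cell filter. A cell took the type of the gate gene with the most UMIs, and ties stayed ungated. UMIs were summed per gate and library and scaled to all UMIs of the gate. Ratios were computed for genes with at least 50 UMIs over both libraries, with 2-fold as a rule of size in place of a test. Shares were also computed after cells were thinned to 2000 UMIs, without shallower cells. Gates were ordered by the mean of both libraries, and neighbours counted as apart when both values of 1 lay above both of the other. Scrublet (scanpy 1.11.5, expected rate 6%) called 4.05% and 2.76% of cells doublets, which were kept. Intervals used scipy 1.17.1 and Python 3.11.15. Genes named outside the 8 were mainly the gate and marker genes, pathway genes past 2-fold, and the 3 genes most like each gene. Bnip3, Pfkfb4, Vegfc, Fgfr1 and the other listed lenvatinib targets were named without being past 2-fold in a gated type. The genes, lists and gates were chosen with earlier results of these data known. Ratios and thinning were tested on simulated data. Alternatives covered the cell filter, doublets, CPM total, scaling, gate rule, minimum of UMIs, fold and thinning. Fixed makeup and removal of shared barcodes were added after seeing the data. Gene coordinates come from GENCODE M21 (GRCm38).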

Additional observations from a re-analysis of the deposited data

Results flagged for a closer look

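Opposite directions between gates were noted where the intervals of the combo to lenvatinib ratio lay on either side of 1. These differences between gates were not tested, since each treatment had 1 library. Vegfa had a ratio of 0.367 in neutrophils and 1.37 in dendritic cells. In dendritic cells, however, the thinned share of cells with a Vegfa UMI was lower under combo, at 3.25% against 4.66%, as was the level in those led by Siglech, at 14.8 against 23.1 CPM. Kit had 1.63 in NK cells and 0.134 in monocytes and macrophages. Hif1a had 1.44 in monocytes and macrophages and 0.562 in the Mcpt8 gate. The Mcpt8 value came from only 28 and 30 UMIs, and the thinned share of cells with a Hif1a UMI there was 17.9% and 17.4%.

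A signal was also seen in cells outside the gates. Ungated cells with at least 2 UMIs of Cpa3, a protease gene of mast cells and basophils, numbered 24 under lenvatinib and 8 under combo, and their Kit level was 743.7 and 141.7 CPM. The lenvatinib cells held the mast cell protease genes Cma1 at 17561.5 CPM, Mcpt4 at 17283.7 CPM and Tpsb2 at 9793.2 CPM, and the combo cells held 0 UMIs of each.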

How the results depend on the processing

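No ratio past 2-fold changed direction under any alternative run. No paired analysis was possible because each treatment had 1 library. Over all cells, the ratio of Kit was 0.986 without a cell filter, and that of Hif1a was 1.04 without mitochondrial, ribosomal protein and hemoglobin genes in the total. Scaling by the median gene gave 0.866 for Vegfa, 1.02 for Vegfb, 1.08 for Nrp1, 1.07 for Kit, 1.25 for Hif1a and 2.32 for Egln3, and 2021 genes at least 2-fold lower summed over gates. Weighting by the lenvatinib makeup gave 0.9996 for Vegfa, 1.06 for Vegfb, 1.49 for Flt1, 0.837 for Nrp1, 1.26 for Kit and 1.32 for Egln3. The count of combinations past 2-fold was 1 higher and 3 lower with the exclusive gate, and 4 higher and 13 lower with no minimum of UMIs, and 4 higher and 8 lower at 1.5-fold. Genes past the fold, summed over gates, were 3097 higher and 6738 lower with a minimum of 20 UMIs, 19349 and 21473 with none, and 3953 and 13849 at 1.5-fold. The numbers of genes evaluated under these settings are not given here, so no result about the 8 genes is read from these counts. With at least 2 UMIs of the gate gene, monocytes and macrophages came first for Nrp1 and Hif1a, and the gate first in the main order came to place 2. Without thinning, the ratio of shares over all cells was 0.911 for Vegfa and 1.17 for Nrp1. Why these values moved was not tested. Of the other values, 277 stayed within their counting interval and 15 did not. Depth limited Flt1 and Kdr, which reached 50 UMIs in 1 gate each.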

Other observations

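Across 14 profiles (7 gates in 2 libraries), the 8195 genes with at least 200 UMIs in gated cells and at least 20 CPM in 1 profile were ranked by Pearson's r of log2(CPM + 1) with each gene that had at least 200 UMIs there. This describes likeness over gates that share libraries and depth. Vegfa was most like Dab2ip (r = 0.876), Cemip2 (0.810) and the NK receptor gene Klrb1b (0.788). Vegfb was most like Csrp1 (0.921), BC003965 (0.920) and Trim27 (0.913). Nrp1 was most like Pvr (0.938), Rgs10 (0.938) and Cxcl9 (0.906). For Kit the genes were Eef2k (0.932), Angpt1 (0.870) and Uchl5 (0.861), and for Hif1a they were Tmem9b (0.829), Tnip1 (0.827) and Stk10 (0.819). Egln3 was most like Igf1r (0.949), Srgn (0.931) and Ifitm1 (0.923). Among the 8 genes themselves, compared without that minimum of UMIs, the highest r was 0.614 between Kdr and Nrp1, and Hif1a and Egln3 had 0.119. Kdr had only 141 UMIs over all cells of both libraries, so its r rests on values near 0.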
